A study of Oryza sativa with 12 samples.

Results

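The root transcriptomes of C bao and Jamaica, the parental rice cultivars of an F1 hybrid named CJF1, were compared on microarrays. The comparison rests on 4 of the 12 arrays of the study, 2 of C bao roots and 2 of Jamaica roots, chosen by their labelled cultivar and tissue and not by any measured value. All roots were 7 days old. The study, whose title concerns weakness of rice hybrids, also holds 2 arrays each of F1 hybrid roots of the same age and of leaves from C bao, Jamaica and F1 plants that were 4 weeks old. The labels name no treatment for any group, so cultivar, tissue and age are all that distinguish the groups. They also do not say whether the 2 arrays of a group came from separate plants or from pooled ones. In the main fit, standard errors and p-values rest on the spread within groups over all 12 arrays, leaf and F1 included. They do not rest on the 4 root arrays alone, and the spread may be technical.

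RNA was hybridised to the Affymetrix rice genome array, on which each transcript is read by 1 or more probe sets designed against reference rice sequences. The signal of a probe set is a brightness on a linear scale, and 57258 rice probe sets were tested. Signals were compared as log2(signal + 16), a scale that understates changes of dim genes, and differences are given as C bao minus Jamaica, positive where C bao was higher. A probe set is called when its adjusted p, from limma with Benjamini-Hochberg adjustment over all 57258 probe sets, was below 0.05. Values with ± are standard errors of a log2 difference from that fit, unless SD is named. Because the probes follow a reference, a different match of a cultivar's transcript to the probes and a different amount of transcript cannot be told apart in a single probe set.

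Rice roots take up ammonium, nitrate, phosphate and silicon, adapt to low oxygen by fermentation, and release defence compounds into the soil. Among these compounds are the labdane diterpenoids, such as momilactones and phytocassanes, which are built from a common precursor by copalyl diphosphate synthases, kaurene synthase-like enzymes and then cytochromes P450. Several of their genes lie in clusters in the rice genome. Other root defences include chitinases, serotonin made from tryptophan, and enzymes that handle peroxide.

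All 4 arrays had the signal profile of root. The 12 root tissue genes examined (among them silicon and nitrate transporters and root patterning factors) had a mean log2 signal of 8.98 to 9.18 on the 4 arrays, against 6.65 to 6.82 on the parental leaf arrays. Lsi2, the silicon exporter of the root, had signals of 12656 and 14815 in C bao against 19356 and 20215 in Jamaica, and none of the 12 passed limma's test between the cultivars, with 1 at an unadjusted p below 0.05. The 2 arrays of each cultivar correlated at r = 0.967 over all probe sets (log2 signal, a description). C bao root replicate 1 stood apart in seed genes: AMY1.1, an alpha-amylase of germinating seed, had a signal of 6142 there and 1.9 on C bao root replicate 2, and a prolamin storage protein gene had 371 and 3.4. The seed list of 14 genes had a summed signal of 10898 on that array, and of 1667 to 4339 on the other 3. The part of this in any difference between cultivars was not tested. Total counts, the diterpenoid and photosynthesis lists and many named genes are also given below without that array. The leaf overlap, F1 shares, neighbouring genes and most list counts are given only with it. The diterpenoid genes also differed within each pair of arrays, as described with them.

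C bao and Jamaica roots differed in 1803 of the 57258 probe sets (3.15%). Of these, 914 were higher in C bao (1.6%) and 889 were higher in Jamaica (1.55%). At an unadjusted p below 0.05 there were 7490. In all 1803 both arrays of one cultivar lay above both arrays of the other, as did 46.3% of all probe sets tested. The differences were often large: the median size among the calls was 2.17 on the log2 scale, 1654 were at least 2-fold, and 156 probe sets were at least 16-fold higher in C bao and 102 at least 16-fold higher in Jamaica. The median difference over all probe sets was -0.02. With only 1 array left in one cultivar the count fell to 1039 without C bao root replicate 1, 889 without C bao root replicate 2, 879 without Jamaica root replicate 1 and 1039 without Jamaica root replicate 2, where the lone array was assumed to vary like the other groups. With the spread taken from the 6 root arrays only, 3215 were called.

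The calls fell in 924 of 17905 genes that had at least 1 probe set of their own (5.16%), and 120 of these genes carry an informative name. A further 774 called probe sets have no gene in the platform annotation used here, and 10 are assigned to several. Counts of genes below judge each gene on its probe set of highest mean log2 signal, by which 841 of 17905 genes were called (4.7%), 416 higher in C bao (2.32%) and 425 higher in Jamaica (2.37%), with a median difference of -0.04.

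Genes named below for a large difference had to have both arrays of one cultivar above both of the other. That their arrays do not overlap was therefore fixed in advance. The largest difference among named genes was that of MADS56, a MADS-box transcription factor known as a repressor of flowering in long days. Its signals were 4916 and 5808 on the C bao root arrays and 7.6 and 1.8 on the Jamaica root arrays. Both C bao arrays were bright and both Jamaica arrays were near the bottom of the scale. The difference was 8.03 ± 0.26, adjusted p = 1.0e-07, and in leaf it was 7.38. OsPP2C12, a type 2C protein phosphatase, had 9263 and 11266 in C bao against 595 and 616 in Jamaica (4.04 ± 0.18, adjusted p = 5.4e-07). PIP2-4, a water channel of the plasma membrane, had 5563 and 5669 against 702 and 771 (2.90 ± 0.31, adjusted p = 3.1e-04). MT1B, a metallothionein that binds metal ions, was among the brightest genes of C bao roots, at 19851 and 24976, and had 4799.6 and 3247 in Jamaica (2.49 ± 0.31, adjusted p = 9.3e-04). For each of these genes the arrays of the 2 cultivars were far from overlapping, and the call remained with any single array left out, with a highest adjusted p of 0.02, for MT1B.

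Other named genes higher in C bao included SWEET2B, a sugar transporter, at 662 and 827 against 56.6 and 87 (3.13 ± 0.43, adjusted p = 0.0019), for which a second probe set was called the same way. RCAA1, which encodes Rubisco activase, had 1618 and 1532 against 334 and 208 and is taken up with the photosynthesis genes. MADS2, a floral organ identity factor, had 938 and 1122 in C bao against 119 and 117 in Jamaica (2.96 ± 0.57, adjusted p = 0.017). AT15, of the BAHD acyltransferase family, had 351 and 371 against 24.8 and 28.6 (3.14 ± 0.73, adjusted p = 0.044), and RAB16D, a dehydrin that protects cells against drying, had 1176 and 735 against 144 and 194 (2.37 ± 0.53, adjusted p = 0.036). The pairs of arrays of MADS2, AT15 and RAB16D did not overlap, but each of the 3 genes lost its call when any 1 of the 4 arrays was left out, with highest adjusted p of 0.15, 0.24 and 0.25.

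**Figure D1:**
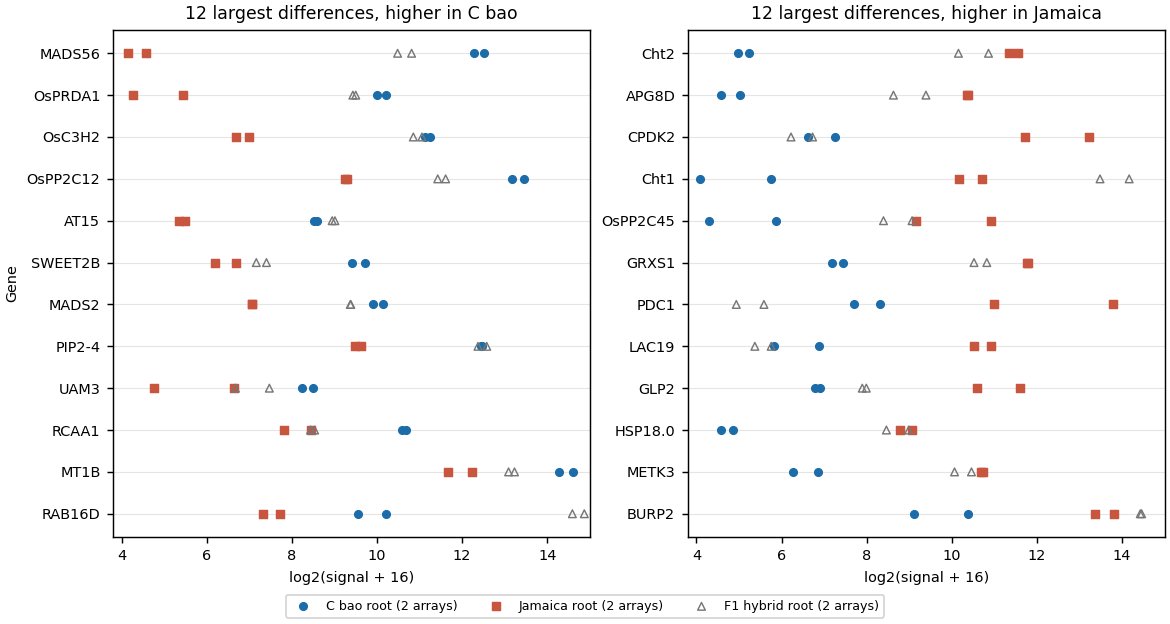
Signals, as log2(signal + 16) on the horizontal axis, of the 12 named genes with the largest called difference in each direction, on each of the 2 C bao (circles), 2 Jamaica (squares) and 2 F1 hybrid (open triangles) root arrays. The 2 circles and the 2 squares do not overlap in any row, which was a condition for a gene to be shown. The F1 arrays lie between them in some genes and outside them in others, such as RAB16D and Cht1.

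Among genes without an informative name, the 3 largest differences each way are given. Those higher in C bao were all larger than any named above. The lowest difference of any called probe set, -9.02, belongs to none of the genes named here. LOC4328531 had signals of 19336 and 23487 in C bao roots against 1.9 and 23 in Jamaica roots (9.66 ± 0.43, adjusted p = 4.8e-07), the largest difference of the comparison. LOC4352472 had 8632 and 10617 against 23.3 and 1.8 (8.50 ± 0.32, adjusted p = 2.2e-07), and a second probe set gave 7.13 ± 0.20. LOC4325264 had 13214 and 11200.0 against 8.5 and 34.4 (8.44 ± 0.57, adjusted p = 8.5e-06). Each was abundant on both C bao arrays and below 50 on both Jamaica arrays. On the other side, LOC4349330 had 26.2 and 39.9 in C bao against 15304 and 11700.1 in Jamaica (-8.11 ± 0.36, adjusted p = 4.8e-07), LOC4340994 had 2.2 and 2.0 against 3547 and 3278 (-7.56 ± 0.48, adjusted p = 5.9e-06), and LOC4325346 had 32.5 and 15.3 against 6704 and 6493 (-7.41 ± 0.34, adjusted p = 6.7e-07). All 6 kept their call without any 1 array.

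Named genes higher in Jamaica roots included enzymes of redox, methyl group and carbon metabolism. APG8D, a ubiquitin-like protein of autophagy, had signals of 7.7 and 16.6 in C bao against 1302 and 1311 in Jamaica (-5.57 ± 0.32, adjusted p = 2.5e-06). GRXS1, a glutaredoxin, had 129 and 157 against 3475 and 3501 (-4.47 ± 0.20, adjusted p = 4.8e-07), and METK3, an S-adenosylmethionine synthetase, had 61.3 and 100.4 against 1692 and 1621 (-4.14 ± 0.33, adjusted p = 3.9e-05). These 3 genes are read by 1 probe set each, had nearly equal values on the 2 Jamaica arrays, and were also higher in Jamaica leaf, with differences of -4.50, -4.83 and -5.18. BURP2, of the plant BURP-domain family, had 1311 and 540.0 against 14372 and 10455 (-3.84 ± 0.33, adjusted p = 5.7e-05).

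A second set of genes was high in Jamaica roots and not in Jamaica leaves. CPDK2, also listed as PPDK2, a pyruvate phosphate dikinase that links pyruvate and phosphoenolpyruvate, had 136 and 81.6 in C bao roots against 9611 and 3367 in Jamaica roots (-5.55 ± 0.47, adjusted p = 5.2e-05). Cht1 (also listed as Cht9), a chitinase that cuts the cell wall polymer of fungi, had 0.9 and 37.5 against 1667 and 1142 (-5.54 ± 0.51, adjusted p = 1.1e-04). GLP2, a germin-like protein, had 104 and 95 against 3104 and 1515 (-4.24 ± 0.49, adjusted p = 5.7e-04), while its second probe set did not pass (-1.72 ± 0.55, adjusted p = 0.16). LAC19, a laccase that oxidises monolignols, had 40.2 and 102 against 1908 and 1463 (-4.37 ± 0.87, adjusted p = 0.02). The Jamaica arrays of CPDK2 and of the first GLP2 probe set differed from each other by more than 2-fold, replicate 1 being the higher. CPDK2, Cht1 and GLP2 kept their call without any 1 array, while LAC19 lost it in all 4 such fits, with a highest adjusted p of 0.16.

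Whether a large difference was shared by the probe sets of a gene could be examined for some of these genes. Of the 30 genes with the largest differences, 18 are read by a single probe set. Of the other 12, 4 (SWEET2B, RCAA1, LOC4352472 and HSP18.0) had another probe set called the same way, while 8 had another probe set with less than a 2-fold difference. OsC3H2, a CCCH zinc finger protein that delays leaf senescence, had 2394 and 2236 against 86.2 and 111 on one probe set (4.35 ± 0.27, adjusted p = 4.5e-06) and 3245 and 3671 against 3426 and 3064 on the other (0.09 ± 0.36, adjusted p = 0.98). OsPP2C45, a phosphatase, had 3.7 and 42.4 against 1913 and 559 on one (-4.96 ± 0.62, adjusted p = 0.0011) and 5571 and 5191 against 5802 and 4990.0 on the other (a difference of -0.0009). For both genes the second probe set was the brighter one and its arrays overlapped between the cultivars.

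The remaining genes with a probe set under 2-fold were HSP18.0, OsPRDA1, UAM3, BURP2, LOC4325346 and Cht2. HSP18.0, a small heat shock protein, had 2 probe sets with differences of -4.21 ± 0.32 and -4.17 ± 0.52 and the third at -0.08 ± 0.19, on which all 4 arrays had signals from 868 to 1096. OsPRDA1, whose Arabidopsis counterpart acts in chloroplast transcription, had 5.25 ± 0.47 and -0.71 ± 0.31. UAM3, a UDP-arabinopyranose mutase of wall synthesis, had 0.03 ± 0.56 on its bright probe set, with signals of 7310.4 and 5528 against 5544 and 6999, and 2.66 ± 0.58 on the dim one, whose call was lost in 3 of the 4 fits without 1 array. BURP2 had -0.60 ± 0.28 and LOC4325346 had -0.78 ± 0.26 on their other probe set.

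In 8 genes probe sets of the same gene were called in opposite directions. Cht2 (also listed as Cht8), a chitinase, was the only one of them with an informative name. One of its probe sets had 2179 and 3610.2 in C bao roots against 75.2 and 95.3 in Jamaica roots (4.81 ± 0.23, adjusted p = 9.5e-07), and a second had 15.5 and 21.5 against 2602 and 3008 (-6.36 ± 0.37, adjusted p = 3.4e-06). Its remaining probe set had 1018 and 1623 against 1906 and 1651 (-0.46 ± 0.27, adjusted p = 0.55). That probe set was bright in both cultivars, and each of the opposed probe sets was bright in 1 cultivar only. Whether the signal of the remaining probe set came from Cht2 alone was not tested. LOC4327323 had a like arrangement, with differences of 3.68 ± 0.52, -3.72 ± 0.19 and 0.20 ± 0.17. LOC4329444 had 7.39 ± 0.45 on one probe set and -7.08 ± 0.45 on the other. In the F1 roots both of the opposed probe sets of Cht2 were bright, at 4794 and 4725 and at 1846 and 1125. Over the 283 genes with several probe sets and at least 1 call, 194 (68.6%) had all their probe sets on the same side of 0.

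**Figure D2:**
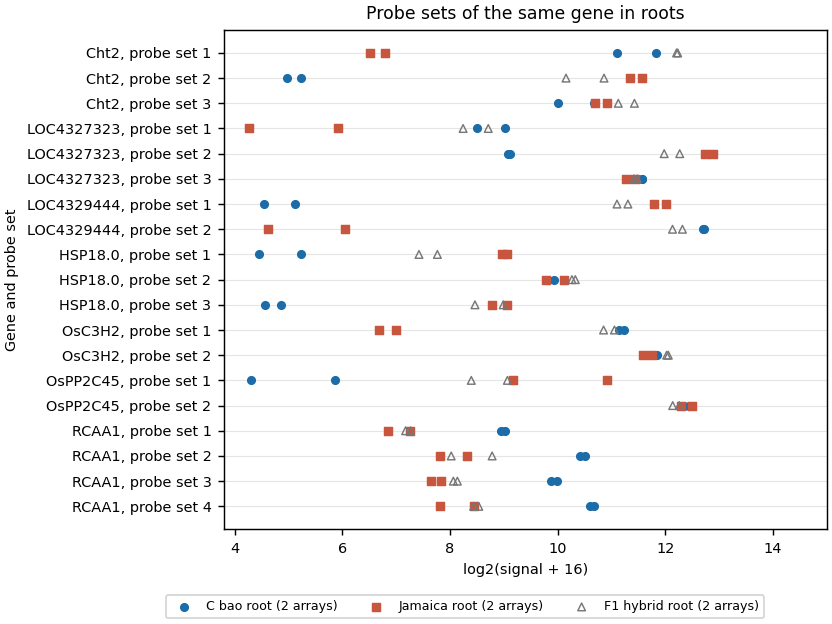
Signals, as log2(signal + 16) on the horizontal axis, on the 2 C bao (circles), 2 Jamaica (squares) and 2 F1 hybrid (open triangles) root arrays for each probe set of 7 genes. Cht2, LOC4327323 and LOC4329444 have probe sets that point in opposite directions, HSP18.0, OsC3H2 and OsPP2C45 have 1 probe set on which the cultivars overlap, and all 4 probe sets of RCAA1 are higher in C bao.

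Gene lists by function were then examined, as counts of called genes beside the 4.7% of all genes. Most of the 44 lists had no called gene or 1, among them the 53 genes of iron, zinc, copper and manganese transport and its regulation (0 called), 52 of dividing cells (1), 25 ribosomal proteins (0), 83 of calcium signalling (1), 44 heat shock genes (1), 31 of cytokinin (0) and 16 MAP kinases (0). Of the lists with 0 calls by limma, metal transport had 8 genes at an unadjusted p below 0.05, ribosomal proteins 1, cytokinin 3 and MAP kinases 2. The lists with the highest shares of calls were the tryptophan-derived amines (3 of 10), the diterpenoids (6 of 21), photosynthesis (4 of 15), the NAC factors (2 of 8), and haemoglobins, fermentation and sucrose synthases (3 of 13).

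**Figure D3:**
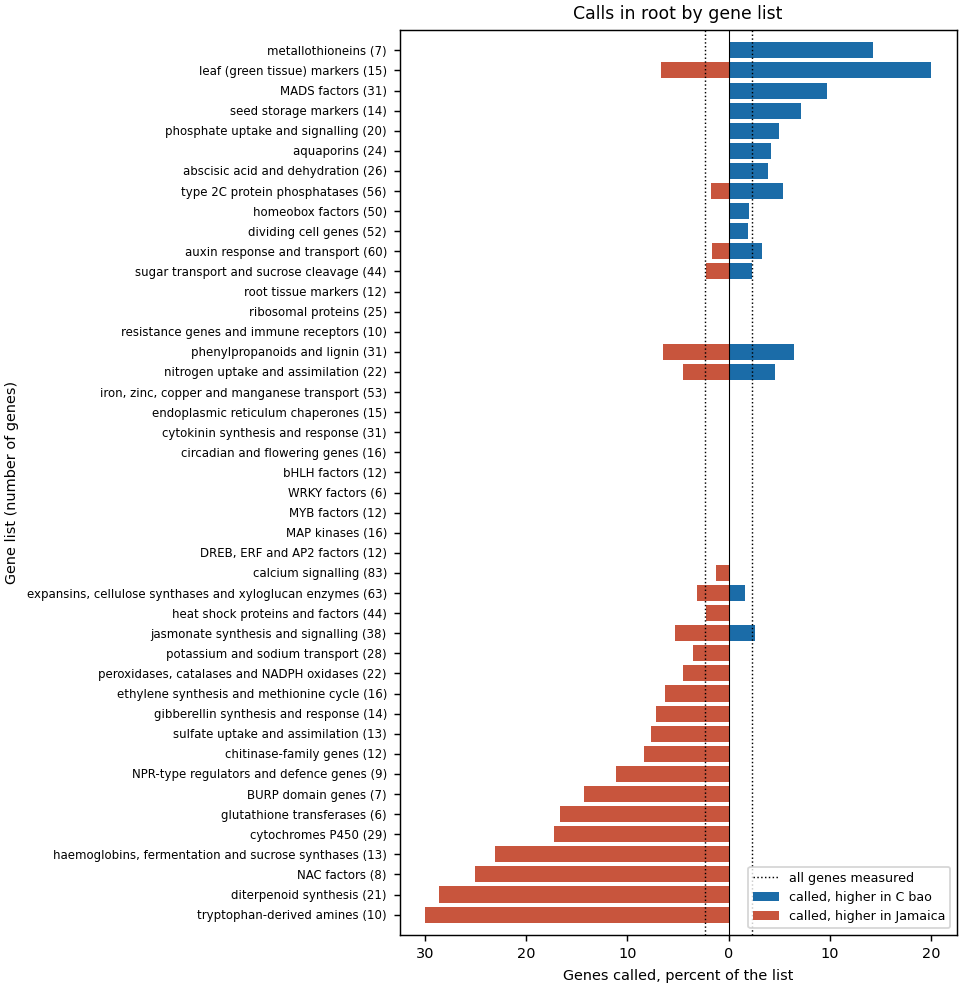
Percent of the genes of each of 44 lists called in root, to the right where higher in C bao and to the left where higher in Jamaica, with the number of genes of a list in brackets. The dotted lines mark the shares over all genes measured, 2.32% and 2.37%. The diterpenoid, tryptophan and fermentation lists lie to the left and the photosynthesis and MADS lists to the right, while many lists hold no call.

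Several genes of diterpenoid synthesis were higher in Jamaica roots. Of 21 genes, most of them for phytoalexins and some, such as CPS1, for gibberellin, 6 were called higher in Jamaica and 0 higher in C bao, 20 had a difference below 0, and the median difference was -1.12, against -0.04 over all genes. Among the cyclases that build the diterpene skeleton, DTS2 (also listed as KSL4) had signals of 8.8 and 139 in C bao against 1151 and 437 in Jamaica (-3.55 ± 0.84, adjusted p = 0.048). DTC1 (KSL7) had 27.8 and 102 against 1026 and 414 (-3.22 ± 0.62, adjusted p = 0.016). The copalyl diphosphate synthase CPS4, which acts one step earlier, had 326 and 875 against 5887 and 2416, its arrays did not overlap, and it missed the threshold (-2.78 ± 0.67, adjusted p = 0.053). OsMAS, the momilactone A synthase, had 143 and 515 against 5305 and 942 and also missed it (-2.96 ± 0.77, adjusted p = 0.078).

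The other 4 calls were cytochromes P450, the enzymes that decorate the skeleton. CYP99A2 had 142 and 462 in C bao against 4272 and 1146 in Jamaica (-3.02 ± 0.67, adjusted p = 0.035), and CYP701A8 had 83.4 and 157 against 1516 and 489 (-2.75 ± 0.46, adjusted p = 0.0075). CYP76M8 had 65.1 and 227 against 1029 and 722 (-2.64 ± 0.47, adjusted p = 0.01) and CYP76M5 had 48 and 49.6 against 616 and 252 (-2.67 ± 0.59, adjusted p = 0.034). These 4 genes and CYP71P1, described with tryptophan, were the only called members of the 29 cytochromes P450 listed. CYP99A3, a bright member at 1394 and 3202 in C bao against 9443 and 2245 in Jamaica, overlapped between the cultivars (-1.12 ± 0.77, adjusted p = 0.64). CPS1, the copalyl diphosphate synthase that serves gibberellin synthesis, was dim in both cultivars and did not pass (-0.94 ± 0.39, adjusted p = 0.31).

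The diterpenoid genes also varied between arrays of the same cultivar. Their mean log2 signal was 6.79 and 7.61 on the C bao root arrays and 9.38 and 8.16 on the Jamaica root arrays, in replicate order, so C bao replicate 2 and Jamaica replicate 2 were the closest. On the F1 root arrays it was 7.93 and 7.80, between the parental pairs. Without C bao root replicate 1 or without Jamaica root replicate 1, 0 of the 21 genes were called and the median was -1.31 or -0.91. Without C bao root replicate 2, 5 were called with a median of -1.71, and without Jamaica root replicate 2, 7 with a median of -2.15. In leaf, DTC1 was the reverse, at 1276 and 1925 in C bao against 5.7 and 7.0 in Jamaica, and the root and leaf differences of this gene differed by -9.37 ± 0.87, adjusted p = 0.0017.

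**Figure D4:**
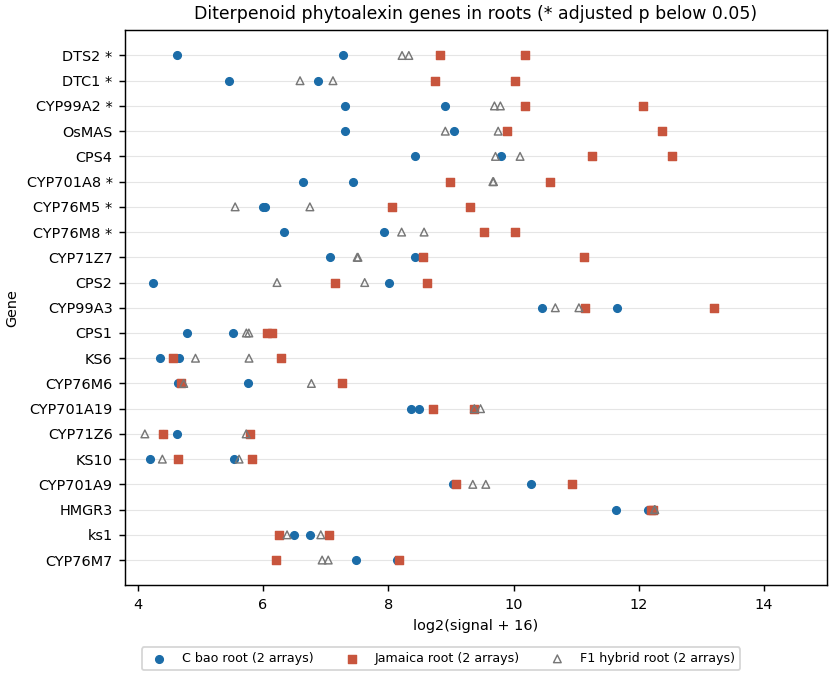
Signals, as log2(signal + 16) on the horizontal axis, of the 21 diterpenoid genes on the 2 C bao (circles), 2 Jamaica (squares) and 2 F1 hybrid (open triangles) root arrays, ordered by the difference between the cultivars. The 6 genes with a star were called, all higher in Jamaica, and the 2 arrays of a cultivar lie several-fold apart in many rows.

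Tryptophan metabolism differed in 3 of 10 genes, all higher in Jamaica, although the median of the list was 0.03. ASB1 and ASA2 encode subunits of anthranilate synthase, the first enzyme on the way to tryptophan. ASB1 had 799 and 1057 in C bao against 5087 and 4784 in Jamaica (-2.40 ± 0.17, adjusted p = 1.1e-05), and ASA2 had 314 and 415 against 1866 and 1697 (-2.25 ± 0.21, adjusted p = 1.0e-04). CYP71P1, the tryptamine 5-hydroxylase that makes serotonin, had 362 and 479 against 2277 and 1846 (-2.26 ± 0.25, adjusted p = 4.3e-04). For each of the 3 genes the arrays were well apart, the F1 roots lay between the parents, and the 3 calls remained without any 1 array. The other anthranilate synthase genes, ASA1 (-0.47 ± 0.30, adjusted p = 0.6) and ASB2 (0.28 ± 0.25, adjusted p = 0.75), and the tryptophan decarboxylase TDC2 (0.46 ± 0.30, adjusted p = 0.62) did not pass.

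Among genes of haemoglobin, fermentation and sucrose cleavage, 3 of 13 were called, all higher in Jamaica, with a list median of -0.15. NSHB2, a haemoglobin of plants that binds oxygen and nitric oxide, had 2431 and 3115 in C bao against 15965 and 14409 in Jamaica (-2.46 ± 0.25, adjusted p = 2.4e-04). PDC1, a pyruvate decarboxylase of ethanol fermentation, had 191 and 303 against 14077 and 2022 (-4.38 ± 0.77, adjusted p = 0.0097). SUS4, a sucrose synthase, had 148 and 192 against 565 and 393 (-1.40 ± 0.29, adjusted p = 0.023). The 2 Jamaica arrays of PDC1 were several-fold apart, and PDC1 and SUS4 lost their call without either C bao array or without Jamaica root replicate 1, while NSHB2 kept it throughout. The brightest fermentation genes did not pass. Adh2, alcohol dehydrogenase, had 19839 and 23815 against 22365 and 20603 (a difference of 0.02 ± 0.54), and PDC2 had 9295 and 8471 against 11829.6 and 10959 (-0.36 ± 0.29, adjusted p = 0.71).

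Defence and stress genes outside these pathways differed singly. Of 12 chitinase-family genes only Cht1 was called on its probe set of highest mean, and of a mixed list of 9 defence genes, most of them NPR-type regulators of salicylate responses, only RBBI3.3, a protease inhibitor (-0.997 ± 0.23, adjusted p = 0.04). CAT-A, a catalase that breaks down hydrogen peroxide, was the 1 call among 22 genes of peroxide metabolism. It had 3297 and 2311 in C bao against 11894 and 8034 in Jamaica (-1.82 ± 0.23, adjusted p = 9.7e-04), and all 3 of its probe sets were called the same way. GSTU6, of 6 glutathione transferases, had 4526 and 4108 against 14251 and 14919 (-1.75 ± 0.33, adjusted p = 0.015). JAZ8 and JAZ12, repressors of jasmonate responses that are themselves induced by jasmonate, were higher in Jamaica, with differences of -1.87 ± 0.36 and -1.47 ± 0.26, and NINJA1, the adaptor that works with them, was higher in C bao by 0.61 ± 0.14. These 3 were the only calls among 38 jasmonate genes. None of 6 WRKY factors, 12 DREB, ERF and AP2 factors or 10 resistance genes and immune receptors was called by limma, and each of these lists had 1 gene at an unadjusted p below 0.05. CAT-A kept its call without any 1 array, GSTU6 and NINJA1 lost it in all 4 such fits, and RBBI3.3, JAZ8 and JAZ12 lost it in 3 of 4.

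Some photosynthesis genes were higher in C bao roots. Of 15 genes, 3 were called higher in C bao and 1 higher in Jamaica, 12 had a difference above 0, and the median difference was 1.04. RCAA1, Rubisco activase, had 1447 and 1357 in C bao against 302 and 209 in Jamaica on its probe set of highest mean (2.41 ± 0.31, adjusted p = 0.0014), and its 4 probe sets were all called. PETE, plastocyanin, had 6026 and 7592 against 2164 and 1938 (1.72 ± 0.27, adjusted p = 0.0047), and RCABP69, a chlorophyll-binding protein, had 929.5 and 1034 against 264 and 385 (1.57 ± 0.25, adjusted p = 0.0057). PSAG, a photosystem I subunit, was the exception, at 325 and 479 against 1021 and 673 (-1.04 ± 0.24, adjusted p = 0.046). The 15 genes had a mean log2 signal of 9.04 and 9.20 on the C bao root arrays, 8.20 and 8.30 on the Jamaica root arrays, and 12.02 to 12.68 on the parental leaf arrays. In leaf, 0 of the 15 were called higher in C bao and 3 higher in Jamaica, where of all genes 8.92% were called higher in C bao and 4.55% higher in Jamaica, 13.5% together. Whether C bao roots held more green cells or more of these transcripts per cell cannot be told apart in bulk RNA. The count higher in C bao was 3, 1, 2 and 2 without C bao root replicate 1, C bao root replicate 2, Jamaica root replicate 1 and Jamaica root replicate 2. It was 5 under quantile scaling and 6 with the spread taken from root arrays only, and PSAG was then not called.

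Nutrient transport differed in few genes. Of 22 genes of nitrogen uptake and assimilation, DUR3, a urea transporter, was called higher in C bao, at 839 and 1062 against 133 and 314 (2.11 ± 0.48, adjusted p = 0.038), and GDH3, a glutamate dehydrogenase, higher in Jamaica, at 42.7 and 53.2 against 289 and 230.5 (-2.10 ± 0.48, adjusted p = 0.042). The median of the list was 0.34, and 16 of 22 had a difference above 0. AMT1-2, an ammonium transporter, had 4806 and 5266 against 1565 and 2088 and missed the threshold (1.47 ± 0.35, adjusted p = 0.053), and the brighter AMT1 had 11537 and 12209 against 8583 and 9030.5 (0.43 ± 0.20, adjusted p = 0.4). Of 20 phosphate genes, only SPX2, a sensor-type regulator of phosphate signalling, was called, higher in C bao (1.88 ± 0.38, adjusted p = 0.021). HAK16, a potassium transporter, was the 1 call among 28 potassium and sodium transport genes (-1.79 ± 0.42, adjusted p = 0.048), PIP2-4 the 1 among 24 aquaporins, and MT1B the 1 among 7 metallothioneins. SAT4, a serine acetyltransferase of cysteine synthesis, was higher in Jamaica, at 1943 and 2086 against 5756 and 4094 (-1.26 ± 0.19, adjusted p = 0.0042). GDH3 and HAK16 lost their call in all 4 fits that left out 1 array, DUR3 and SPX2 in 3 of the 4 such fits, and SAT4 only without Jamaica root replicate 1.

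Hormone and cell wall genes were called in both directions. Of 60 auxin genes, IAA3, a repressor of auxin responses, was the brightest to differ, at 19093 and 17595 in C bao against 4874 and 3808 in Jamaica (2.08 ± 0.23, adjusted p = 4.1e-04), and was higher in C bao leaf too (2.41). IAA6 was also higher in C bao (0.89 ± 0.21, adjusted p = 0.043), and GH3.9, which conjugates auxin to amino acids, was higher in Jamaica, at 6.4 and 56.2 against 356 and 269 (-3.02 ± 0.60, adjusted p = 0.02). Of 31 phenylpropanoid and lignin genes, 4CL1 (4-coumarate CoA ligase, 1.72 ± 0.29, adjusted p = 0.0075) and CAD6 (cinnamyl alcohol dehydrogenase, 1.53 ± 0.27, adjusted p = 0.0095) were higher in C bao, and LAC19 and CAD8C (-1.67 ± 0.22, adjusted p = 0.0014) higher in Jamaica. Of 63 genes of wall synthesis and loosening, CSLE1 was higher in C bao (1.45 ± 0.22, adjusted p = 0.0042). CSLF2, a synthase of the mixed-linkage glucan of grass walls, was higher in Jamaica, at 13.8 and 28.1 against 385 and 458 (-3.59 ± 0.59, adjusted p = 0.0061), and so was BC1L9, a COBRA-like protein (-0.96 ± 0.19, adjusted p = 0.021). IAA3 and CAD8C kept their call without any 1 array, and the other hormone and wall genes named here lost it in 2 to 4 of the 4 such fits.

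Transcription factors and signalling genes were called in both directions. In addition to MADS56 and MADS2, mads47 was higher in C bao, at 908 and 896 against 308 and 105 (2.21 ± 0.36, adjusted p = 0.0063), and these were the 3 calls among 31 MADS factors, whose median was 0.04. NAC4, at 129.5 and 130.1 in C bao against 492 and 691 in Jamaica (-2.04 ± 0.21, adjusted p = 2.8e-04), and NAC45, at 165 and 259 against 826 and 492 (-1.55 ± 0.33, adjusted p = 0.028), were both higher in Jamaica. OSH45, a KNOX homeobox factor, was higher in C bao (1.48 ± 0.23, adjusted p = 0.0045). Among 56 type 2C phosphatases, which switch off stress kinases, OsPP2C12, BIPP2C1 (1.52 ± 0.25, adjusted p = 0.0066) and OsPP2C27 (1.08 ± 0.25, adjusted p = 0.044) were higher in C bao and OsPP2C16 (-1.55 ± 0.34, adjusted p = 0.032) higher in Jamaica. CIPK6, a kinase that acts with calcium sensors, had 441 and 284 against 2812 and 2175 (-2.75 ± 0.44, adjusted p = 0.0055). NAC4 and OsPP2C12 kept their call without any 1 array, and the other genes called here, apart from MADS56, lost it in 2 to 4 of those 4 fits. The remaining calls in the lists were H2B.10, a histone (1.996 ± 0.44), and GLB, listed with the seed storage genes (1.998 ± 0.17), higher in C bao, and HSF6 (also listed as ARD1; -1.33 ± 0.30) and HSP24.1 (-0.89 ± 0.20), higher in Jamaica. GLB had 2851 and 3122 on the C bao arrays, so it was as high on replicate 2, where the seed genes named above were low. GLB kept its call without any 1 array, and H2B.10, HSF6 and HSP24.1 lost it in all 4 such fits.

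The same cultivar contrast in leaf, which shares no array with that in root but differs in age as well as tissue, gave 4308 calls (7.52%), 2711 higher in C bao (4.73%) and 1597 higher in Jamaica (2.79%). Of the 1803 probe sets called in root, 788 (43.7%) were called the same way in leaf, 55 the opposite way, and 960 were not called in leaf. The 788 were 18.3% of the leaf calls. Of the root calls higher in C bao, 457 of 914 were called the same way in leaf, and of those higher in Jamaica, 331 of 889 (37.2%). Among the probe sets that were most clearly bright in one cultivar and dim in the other, the share was higher. Of 88 with signals above 500 on both C bao root arrays and below 50 on both Jamaica root arrays, 81 (92.0%) were called the same way in leaf, and of 56 in the opposite arrangement, 45 (80.4%). MADS56, OsPRDA1, OsPP2C12, GRXS1, METK3 and APG8D were among the genes with like differences in both tissues, with adjusted p for root minus leaf from 0.26 (APG8D) to 0.96 (OsPRDA1), which does not show that the differences were equal.

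The test of the difference itself, root minus leaf, called 968 probe sets (1.69%), 459 with a higher (0.802%) and 509 with a lower (0.889%) C bao minus Jamaica value in root. By gene it called 551 of 17905 (3.08%), 238 higher (1.33%) and 313 lower (1.75%). Of the 968 probe sets, 409 were also called in root. DTC1 (-9.37 ± 0.87, adjusted p = 0.0017) and Cht1 (-8.46 ± 0.73, adjusted p = 0.0013) were called in opposite directions in the 2 tissues, since both were higher in Jamaica root and in C bao leaf. Cht1 had 118 and 129.9 in C bao leaf against 2.3 and 2.6 in Jamaica leaf. CPDK2 differed by -6.76 ± 0.66, adjusted p = 0.0019 and PDC1 by -5.95 ± 1.09, adjusted p = 0.027, neither with a call in leaf. DUR3 was higher in C bao root and in Jamaica leaf, where it had 257 and 429.9 against 2013 and 814 (4.01 ± 0.67, adjusted p = 0.018). AMT3-3, an ammonium transporter, was 380.4 and 364 against 172 and 204 in root and 112 and 63.6 against 3025 and 1447 in leaf (5.32 ± 0.51, adjusted p = 0.0018). BURP17 was called in leaf, where it had 14379.6 and 13726 against 10.8 and 2.2, and not in root (1.80 ± 0.50, adjusted p = 0.1), a difference of -7.52 ± 0.71, adjusted p = 0.0017. The count of root minus leaf calls fell to 191 without C bao root replicate 2, 204 without Jamaica root replicate 1, 229 without C bao root replicate 1 and 274 without Jamaica root replicate 2. DTC1, Cht1, CPDK2, AMT3-3 and BURP17 kept this call without any 1 of the 4 arrays, and DUR3 did not, with a highest adjusted p of 0.099.

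**Figure D5:**
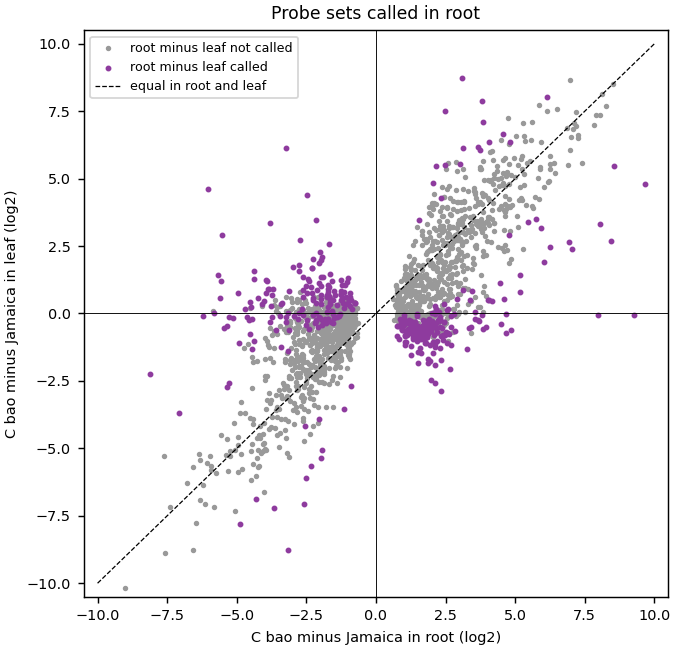
C bao minus Jamaica difference (log2) in leaf against that in root for the 1803 probe sets called in root. Purple points are the 409 for which root minus leaf was called, and the dashed line marks equal differences. Points lie both along the line and in a band near 0 in leaf. The points were chosen by their value on the horizontal axis.

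The F1 hybrid roots were set beside the parents as a description. The probe sets were chosen for a difference between the parents, which makes an F1 mean between them more likely. The share over all probe sets is not given. For 1387 of the 1803 probe sets called between the parents (76.9%) the mean F1 signal lay between the parental means, for 254 above both and for 162 below both. The median F1 position on the log2 scale, where 0 is Jamaica and 1 is C bao, was 0.54. It was 0.74 for the calls higher in C bao and 0.37 for those higher in Jamaica. On this scale an F1 signal midway between the parental signals lies nearer the higher parent. Among the 88 probe sets bright only in C bao the F1 signal was a median of 0.605 of that parent's, and among the 56 bright only in Jamaica, 0.379. MADS56 had 1417 and 1783, GRXS1 1795 and 1454 and METK3 1394 and 1054 in F1 roots, all between the parents.

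Some genes that differed between the parents were outside the parental range in the F1. RAB16D had 24678 and 29964 in F1 roots, far above both parents, Cht1 had 18386 and 11434, and SUS4 had 4877 and 3880.1. JAZ8, at 2912 and 2767, and BURP2, at 22046 and 22529, were also above both. Below both parents were NSHB2, at 543 and 597, PDC1, at 32 and 14.6, and DUR3, at 16.2 and 23.9. LAC19, at 38 and 25.4, was also below both, but C bao root replicate 1 had only 40.2. For each of these genes the 2 F1 arrays lay on the same side of all 4 parental arrays.

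Genes with a call had a called neighbour more often than the other genes did, which is a description with no test. In the order of the 17905 measured genes on the RefSeq assembly ASM3414082v1, 202 of the 924 genes with a call (21.9%) had a called gene as the next measured neighbour on one side or both, against 9.22% of genes without a call. There were 66 runs of neighbouring genes called the same way, 8 of them with 3 or more genes and the longest with 4. One run of 4 held CYP76M5, CYP76M8, LOC4329723 and DTC1, all higher in Jamaica, with differences of -2.67 ± 0.59, -2.64 ± 0.47, -3.19 ± 0.72 and -3.22 ± 0.62. This is the cluster in which rice keeps several phytocassane-type diterpenoid genes. CYP71Z7 (-2.09 ± 0.75, adjusted p = 0.22), CYP71Z6 (-0.58 ± 0.60, adjusted p = 0.80) and CYP76M6 (-0.78 ± 0.93, adjusted p = 0.84) have locus numbers close to these and were not called. Another run of 4 held LOC4339505, LOC4339506, LOC4339507 and LOC4339508, all higher in C bao, by 3.74 to 5.89. LOC4339507 had 2296 and 1758 in C bao against 5.0 and 39.4 in Jamaica, and the F1 had 1559 and 1629.5. LOC4352472, with one of the largest differences of all, was followed by LOC4352473, at 4749.5 and 4700.3 against 559 and 669.6, and LOC4352474, at 756 and 1177 against 200.4 and 139, both also higher in C bao.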

How the data were processed

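Total RNA was extracted with a column kit, labelled with biotin by the one-cycle method and hybridised to rice arrays, per the labels. The authors deposited 1 intensity per probe set and array on a linear scale, processed with MAS5 per the submitters' processing notes. Each array's mean without its highest and lowest 2% of values was 500.1 over all probe sets, so arrays came scaled by mean. Their medians still differed. Detection calls were not analysed here, and the number of arrays limits precision.

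The 57258 rice probe sets (123 control probe sets left out) were taken as log2(signal + 16) without a filter or further scaling. A model of 6 group means over all 12 arrays was fitted with limma 3.58.1 in R 4.3.3 (lmFit, eBayes with a trend, two-sided), which leaves 6 residual degrees of freedom, with Benjamini-Hochberg adjustment over all probe sets. On simulated data for the root contrast with 57258 probe sets, 67% of 100 changes of 2 log2 units and 17% of 100 changes of 1 were recovered, with 6 false calls. The changes were placed only in probe sets above a set mean signal, and far fewer were placed than were called in the real contrast. The share recovered in the real data may therefore differ.

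Probe sets were named from the platform annotation and RefSeq: 22436 have 1 gene, 95 several and 34727 none, giving 17905 genes, 2458 with an informative name. Antisense or overlapping genes were not separated.

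The comparison, lists and tests were chosen with earlier results of these data known. Lists were matched by gene symbol, leaving out genes of another function that share a symbol. Named genes were the 12 largest called differences each way among informatively named genes and the 3 largest among others (mean signal of at least 200 in the higher cultivar, both of its arrays above both of the other), up to 2 calls each way per list, and the 4 largest root minus leaf values each way. Others (ASA2, CYP76M5, CYP76M8, RCABP69, mads47, OsPP2C27, the opposed probe sets, members of runs, and genes named as not called) were chosen after their values were seen. Replicate numbers did not pair C bao with Jamaica roots (correlation of deviations -0.04).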

Additional observations from a re-analysis of the deposited data

Results flagged for a closer look

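For 31 of the 76 probe sets named by rule, the C bao minus Jamaica difference in root differed from that in leaf by limma's test of root minus leaf (adjusted p below 0.05 over all probe sets, 2 arrays a group). The rule took 8 of these because they were called for this value, so those calls were fixed in advance. It took the others for a call in root. Over all probe sets 1.69% were called, and of the 1803 root calls 409 were. The values are log2 differences, root minus leaf, and roots and leaves also differ in age. In 17 the value was lower in root: DTC1 (-9.37), Cht1 (-8.46), BURP17 (-7.52), CPDK2 (-6.76), PDC1 (-5.95), LOC4349330 (-5.88), OsPP2C45 (-5.71), LAC19 (-5.65), GLP2 (-4.81), NSHB2 (-3.73), CYP71P1 (-2.77), GSTU6 (-2.44), SAT4 (-1.99), CAD6 (-1.92), NAC4 (-1.89), ASB1 (-1.83) and CAT-A (-1.60). In 14 it was higher in root: LOC4325264 (5.74), AMT3-3 (5.32), LOC4328531 (4.87), DUR3 (4.01), OsTrxm5 (3.65), HSP17.4 (3.33), RCAA1 on 2 probe sets (3.21 and 3.20), CSLE1 (2.19), BIPP2C1 (2.17), PETE (2.01), HSP24.1 (1.80), OSH45 (1.57) and IAA6 (1.36). CAD6 was higher in C bao in both tissues and HSP24.1 higher in Jamaica in both, more so in leaf. OsTrxm5, a thioredoxin of plastids, had 155 and 172 in C bao root against 9.5 and 20.3 in Jamaica root, and 5313 and 8378 against 15592 and 13019.5 in leaf. HSP17.4 was not called in root (0.55 ± 0.42, adjusted p = 0.69) and was lower in C bao leaf (-2.78, adjusted p = 0.0031).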

How the results depend on the processing

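The root count of 1803 was 2795 with array weights, 3215 with root arrays only and 951 at a threshold of 0.01. It was 879 to 1039 with 1 of the 4 arrays left out. The other alternatives, among them other pseudocounts (1 and 64), quantile scaling, median centring and a filter on dim probe sets, gave 1521 to 2400. The root minus leaf count of 968 was 2989 with 8 parental arrays only, 3958 without both F1 leaf arrays, 2433 with array weights, 470 without the trend, 152 at 0.01 and 191 to 274 with 1 root array left out. The leaf count of 4308 was 7360 without both F1 leaf arrays and 1556 at 0.01. A lower threshold gives fewer calls by itself. Counts were lower with 1 root array left out, but higher with root arrays only, with 8 parental arrays only and without both F1 leaf arrays. Arrays of the same group lay further apart in leaf than in root. The SD of their log2 difference, divided by the square root of 2, was 0.650 (F1), 0.588 (Jamaica) and 0.473 (C bao) in leaf. In the root groups it was 0.453 to 0.465. The cause of the changes in the counts was not tested. With the replicate number as a block, the counts were 1612 in root and 695 for root minus leaf, although the numbers share only a name. None of the 72 root and 8 root minus leaf probe sets named by rule changed direction under the alternatives run for them. Of the 72 probe sets named for root, 33 remained called without each of the 4 arrays in turn, and of the 8 named for root minus leaf, 6. Under quantile scaling 9 of the 72 missed the threshold, under the block 11 and without the trend 20. Changes near 2-fold may often be missed on these 12 arrays. In simulation 17% of them were recovered, with changes placed only in probe sets above a set mean signal, and the rate in the real data was not measured. Dim signals have no detection call here, so a low value is not a measured absence. Leaf alternatives and list counts by setting were added after the data were seen.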
